A study of Mus musculus with 4 samples.

Results

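Genes for splicing factors and heterogeneous nuclear ribonucleoproteins (hnRNPs) were examined in dendritic cells (DC) of the mouse spleen, 24 h after the mice received TCDD or its solvent. They were taken by symbol: every probe set annotated to 1 symbol beginning with Srsf, Hnrnp, Sf3a, Sf3b, Snrp, U2af or Prpf, or to Rbm39, Sf1, Tra2a, Tra2b, Son or Srrm1. This gave 166 probe sets of 63 genes, out of 22626 probe sets tested on the array. A further 15 probe sets carry several symbols of which 1 fits and were not used. The set was proposed with the TCDD and DMSO values of these arrays in view, so its differences between the groups are given as a description.

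Both groups were female C57BL/6 mice of 8 to 12 weeks with no genetic change stated, 3 mice per group. One group received 10 µg/kg TCDD in corn oil intraperitoneally, a dioxin that activates the aryl hydrocarbon receptor (AhR), and the other DMSO in corn oil. The pooled spleens went through a BSA gradient and a magnetic sort that left DC at above 90% purity, and amplified RNA of each sample was put on 1 Affymetrix array. Each group has 2 arrays with biological replicate numbers. The labels do not say whether the arrays of a group came from different mice, so p-values measure only the spread between arrays, which may be partly technical. All 9 fixed DC markers, among them Itgax, Flt3, Zbtb46 and H2-Aa, were measured above the dim threshold described next.

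Splicing removes introns from nascent transcripts in a series of RNA-protein complexes. SF1 and the U2AF dimer mark the branch point and the 3′ splice site, the U2 particle with its SF3a and SF3b complexes takes over the branch point, Sm proteins form the ring that each spliceosomal RNA carries, and PRPF proteins build and drive the catalytic complex. SR proteins, named for arginine-serine repeats, mostly promote the use of an exon and hnRNPs often oppose it, so the balance of both sets which exons are kept. Many genes of both families also adjust their own RNA level through alternative splicing, which can leave probe sets of 1 gene reporting different transcripts.

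Values are log2 RMA intensities, given to 1 decimal in the deposited table. A difference is the mean of TCDD minus the mean of DMSO on that scale, a negative value means lower in TCDD, and each standard error (SE) comes from limma with n = 2 arrays per group. A probe set is called dim when its mean over the 4 arrays lies under 5.525, the 40th percentile; 24 of the 166 are dim and all 63 genes have at least 1 probe set that is not. Levels of different probe sets cannot be set against each other, because each has its own binding strength. In RNA from a cell population, fewer cells of a type and less RNA per cell cannot be told apart.

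Promoters are shown first, because TCDD acts through the AhR, whose binding element has the core letters GCGTG. RefSeq windows (GRCm38.p6) were found for 57 of the 63 genes, 78 windows in all (no entry for Hnrnpll, Hnrnpul2, Sf3b4, Sf3b5, Snrpb and U2af2), and the 250 bases before the start site were searched on both strands. Role groups were set by symbol. Where a role group held a member with a difference of at least 1.2 in size, the window of its leading gene follows, 5′ to 3′ along the gene, with each GCGTG or its reverse CACGC in capitals.
Rbm39: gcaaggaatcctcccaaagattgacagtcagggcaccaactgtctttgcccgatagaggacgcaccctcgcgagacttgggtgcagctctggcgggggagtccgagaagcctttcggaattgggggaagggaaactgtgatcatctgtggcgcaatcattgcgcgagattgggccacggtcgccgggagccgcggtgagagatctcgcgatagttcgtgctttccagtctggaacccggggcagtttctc
Srsf5: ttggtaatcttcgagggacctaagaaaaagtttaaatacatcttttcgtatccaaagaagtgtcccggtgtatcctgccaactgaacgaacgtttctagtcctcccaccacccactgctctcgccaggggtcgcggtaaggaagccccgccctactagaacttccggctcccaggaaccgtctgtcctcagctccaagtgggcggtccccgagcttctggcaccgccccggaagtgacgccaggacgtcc
Hnrnpdl: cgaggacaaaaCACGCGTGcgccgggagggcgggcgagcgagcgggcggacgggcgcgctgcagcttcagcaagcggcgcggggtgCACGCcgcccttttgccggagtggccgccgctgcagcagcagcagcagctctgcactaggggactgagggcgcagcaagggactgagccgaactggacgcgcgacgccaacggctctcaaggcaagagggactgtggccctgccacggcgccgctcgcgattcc
U2af1: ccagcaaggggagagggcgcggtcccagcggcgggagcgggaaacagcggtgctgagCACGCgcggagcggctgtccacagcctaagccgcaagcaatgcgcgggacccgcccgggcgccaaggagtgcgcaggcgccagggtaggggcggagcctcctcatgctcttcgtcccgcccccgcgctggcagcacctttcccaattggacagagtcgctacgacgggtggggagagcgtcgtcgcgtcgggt
Snrpd3: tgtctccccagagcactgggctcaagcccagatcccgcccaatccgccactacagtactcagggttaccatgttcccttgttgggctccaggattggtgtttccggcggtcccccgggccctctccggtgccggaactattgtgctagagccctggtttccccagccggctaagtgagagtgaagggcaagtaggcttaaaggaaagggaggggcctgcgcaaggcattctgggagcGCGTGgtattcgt

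The Rbm39 window lies at chr2:156180239-156180488 on the minus strand and the Srsf5 window at chr12:80945249-80945498 on the plus strand, and neither holds the core. The Hnrnpdl window, at chr5:100039223-100039472 on the minus strand, holds it 3 times, with the first pair sharing letters. The U2af1 window, at chr17:31658765-31659014 on the minus strand, and the Snrpd3 window, at chr10:75517792-75518041 on the plus strand, hold it once each, in Snrpd3 starting 13 bases before the start site. Rbm39 and U2af1 have 2 windows each, of which the first in the table is shown. Over all member windows 43 of 78 held the core, or 55.1%, against 28.2% of 32851 windows of the same length. Member windows were richer in G and C, with a median of 60.4% against 52.4%; among windows of 54.8% to 68.4% G and C the core was in 61.5% of 39 member windows and 43.2% of 10257 of all. Genes with a core in a window had a median difference of -0.41 (32 genes, from -1.3 to 0.8) and genes without one of -0.25 (25 genes, from -1.65 to 0.2), and the ranges overlap.

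Of 3 further motifs searched (CCGGAAG, which ETS factors bind, CCAAT and TATAAA, each on both strands), the ETS letters were the most uneven over the role groups. They stood in 7 of 8 windows of SF3a and SF3b genes, 87.5%, against 12.0% of 25 hnRNP windows, 41.7% of 12 SR windows and 6.91% of all 32851 windows (12.3% of those with 54.8% to 68.4% G and C). The stretches around the match nearest the start site show the letters in capitals, for 6 of the 7 genes with a window; Sf3b1 had no match, and the earlier of the 2 matches of Sf3b6 is left in lower case.
Sf3a1: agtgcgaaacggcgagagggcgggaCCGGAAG
Sf3a2: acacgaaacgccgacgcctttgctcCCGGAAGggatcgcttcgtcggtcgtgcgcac
Sf3a3: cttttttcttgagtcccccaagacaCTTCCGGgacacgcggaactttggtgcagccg
Sf3b2: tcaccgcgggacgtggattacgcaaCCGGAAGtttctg
Sf3b3: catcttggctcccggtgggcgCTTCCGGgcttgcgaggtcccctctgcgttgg
Sf3b6: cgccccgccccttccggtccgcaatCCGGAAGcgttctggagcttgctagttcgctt

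The stretches lie at chr11:4160322-4160353, chr10:80798634-80798690, chr4:124714746-124714802 and chr12:4817513-4817569 on the plus strand, and at chr19:5295456-5295493 and chr8:110847001-110847053 on the minus strand, in the order Sf3a1, Sf3a2, Sf3a3, Sf3b6, Sf3b2, Sf3b3. Sf3b2 has a second, overlapping window with the same match. The CCAAT letters were in 50.0% of member windows and 33.8% of all, and TATAAA in 6.41% and 12.4%. A match describes letters in the window and is not evidence of binding.

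As a family the splicing genes had a median below 0 (lower in TCDD) under every scaling tried. The median difference was -0.30 over the 166 probe sets and 0.00 over all 22626, and 125 lay below 0, 33 above and 8 at 0. In 58 probe sets, or 34.9%, both TCDD arrays lay below both DMSO arrays, where 18.4% of all probe sets did. In 11, or 6.63%, both lay above, where 19.0% of all did. These shares of all probe sets are not matched for level. At a mean level from 8 to 10, 42.9% of members were lower without overlap, beside 38.6% of all probe sets. At 10 and above 6 of 15 members were, beside 33.1%. From 6 to 8 the shares were 30.8% and 22.9%, and below that 9 of 36 members beside 10.2%. Higher were 1.59% of members beside 3.7% from 8 to 10, and 0 of 15 beside 1.72% above. They were 11.5% beside 17.1% from 6 to 8, and 11.1% beside 24.6% below. From 8 to 10 the lower shares thus lay near each other. A difference of at least 1 without overlap was held by 15 members on the lower side and 1 on the higher side, where the shares of all probe sets were 2.35% and 0.398%. The size of the family's median depended on scaling: a further quantile normalization of the deposited values brought it to -0.15 and cyclic loess to -0.17. Under these, 25 and 27 probe sets were higher without overlap in place of 11, or 15.1% and 16.3%, beside 21.1% and 22.4% of all. Lower without overlap were 44 and 53, or 26.5% and 31.9%, beside 16.5% and 22.6% of all.

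No member could be called. At an adjusted p under 0.05, limma's count was 0 of 22626 probe sets, 0%, and the members' adjusted p ran from 0.349 to 1.0. At an unadjusted p under 0.05 limma found 26 of the 166 members lower and 5 higher, where the shares of all probe sets were 6.7% and 6.37%. The set was proposed with these same values in view and the shares are not matched for level. No support is therefore drawn from the members' p-values. With 2 arrays against 2 an exact permutation test of 1 probe set cannot go below p = 0.33, and none was run.

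The role groups differed in where they lay. SR proteins had a median of -0.45 over 28 probe sets, SR-related proteins -0.50 over 22, hnRNPs -0.40 over 50, the 3′ splice site group -0.33 over 6 and PRPF proteins -0.30 over 23. SF3a and SF3b subunits of the U2 particle stood at -0.03 over 22 probe sets. The snRNP core proteins, Sm proteins together with the other Snrp genes Snrpa1, Snrpb2 and Snrpc, stood at 0.00 over 15. Under quantile normalization and cyclic loess the SR, SR-related, hnRNP, 3′ splice site and PRPF medians stayed below 0, from -0.41 to -0.10, the U2 subunits turned to 0.04 and 0.01, and the core proteins moved to 0.18 and 0.15; under median centring these last groups stood at -0.08 and -0.05. SR and hnRNP probe sets thus lay lower in these arrays. The SF3 and snRNP core groups lay nearer 0, with a sign that changes with the scaling, and no test of that contrast was made.

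**Figure D1:**
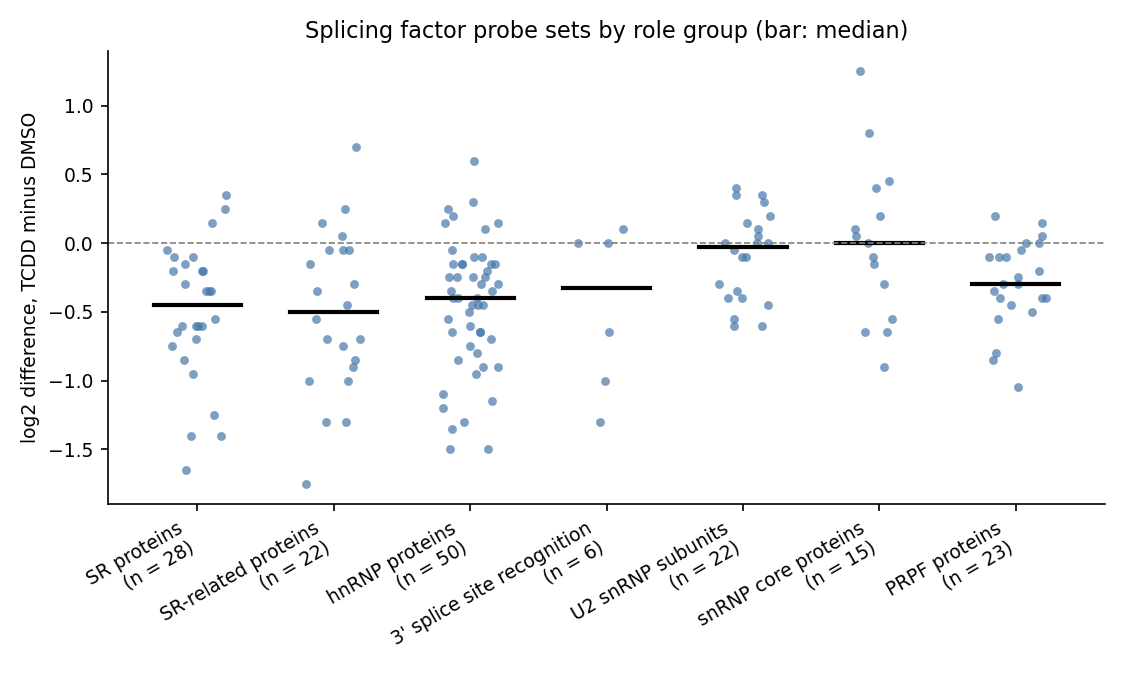
Each point is the log2 difference (TCDD minus DMSO) of 1 probe set, grouped by role, and the black bar is the median of the group. SR, SR-related and hnRNP points lie mostly below 0 with medians of -0.45, -0.50 and -0.40, while U2 snRNP and snRNP core points are centred near 0.

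In the deposited values bright probe sets were lower in TCDD across the whole array, and many splicing genes have bright probe sets, so level was set beside the difference. At a mean level from 8 to 10 the members' median was -0.40 over 63 probe sets and that of all probe sets -0.35 over 2487. At 10 and above the values were -0.30 over 15 and -0.25 over 641. From 6 to 8 they stood further apart, at -0.38 over 52 members and -0.10 over 7826 probe sets, and below 6 at -0.18 over 36 and 0.05 over 11672. Split by role at levels of 8 and above, where all probe sets had -0.35, hnRNPs had the same -0.35 (35 probe sets), SR proteins -0.60 (14), U2 subunits 0.00 (10) and core proteins -0.08 (4). Bright hnRNPs therefore lay where bright probe sets lay in general, and bright U2 subunits lay above them. After quantile normalization the median at 8 and above was 0.00 over all probe sets and -0.03 over members, and after cyclic loess -0.04 and -0.06. Below 8, where all probe sets had 0.00, hnRNPs had -0.45 (15), SR-related proteins -0.50 (16), SR proteins -0.33 (14) and U2 subunits -0.05 (12).

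**Figure D2:**
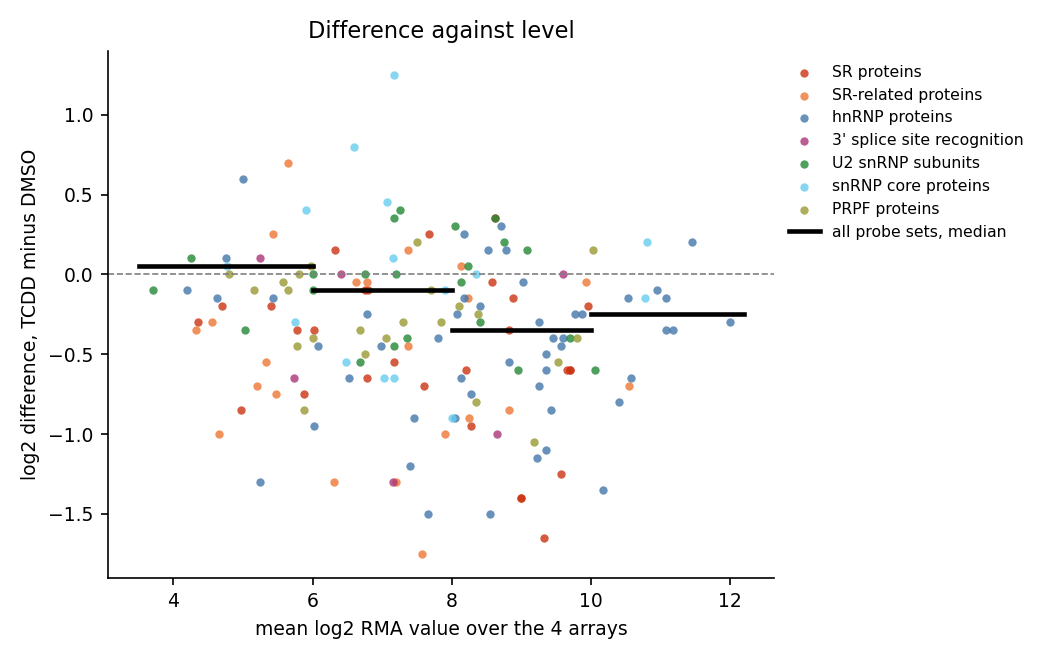
The log2 difference of each member probe set (vertical) is plotted against its mean log2 value over the 4 arrays (horizontal), coloured by role group; black steps give the median of all probe sets in 4 ranges of level. The steps go from 0.05 below 6 to -0.35 between 8 and 10, and the members lie around the step at high levels and mostly below it at lower levels.

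SR proteins held 12 of 28 probe sets lower without overlap, or 42.9% where all probe sets had 18.4%, and 1 higher, or 3.57% where all had 19.0%. Of the 28, 14 have a mean level from 8 to 10, where the share lower over all probe sets was itself 38.6%. Srsf9, an SR protein with a short arginine-serine tail, lay at 10.4 and 10.0 with DMSO against 8.7 and 9.2 with TCDD, a difference of -1.25 (SE 0.267) or 2.38-fold. Srsf6, which binds exonic enhancers, lay at 9.9 and 9.5 with DMSO against 7.5 and 9.1 with TCDD on its leading probe set, a difference of -1.40 (SE 0.673). In both genes the groups did not overlap, but in Srsf6 most of the difference sat in TCDD replicate 1. The other 2 probe sets of Srsf6 differed by -0.60 each, again without overlap.

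Srsf11, a partner of U2AF, lay at 9.6 and 9.8 with DMSO against 7.6 and 9.0 with TCDD (difference -1.40, SE 0.578), and its second probe set differed by -0.60 with no overlap. Srsf5 lay at 11.1 and 9.2 with DMSO against 7.1 and 9.9 with TCDD (difference -1.65, SE 1.38). Its groups overlapped and its DMSO arrays stood 1.9 apart, so the largest SR difference was also the one with the largest SE of the group.

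The SR genes with most probe sets showed smaller and uneven differences. Srsf1, the founding family member, had 6, all below 0 from -0.75 to -0.10; the best separated of them lay at 9.9 and 10.1 with DMSO against 9.6 and 9.2 with TCDD (difference -0.60), the same 4 values as on 1 probe set of Srsf6. Srsf10, which acts as a repressor when dephosphorylated, had 4 from -0.70 to -0.10, and its leading one lay at 7.7 and 8.2 against 7.2 and 7.3 (SE 0.216). Every probe set of these 2 genes thus pointed down. Srsf3, a small SR protein that also aids mRNA export, had 6 from -0.85 to 0.35, the lowest being dim at 5.0 and 5.8 with DMSO against 4.6 and 4.5 with TCDD. Srsf2, known as SC35 in nuclear speckles, had 4 from -0.95 to 0.25; the lowest lay at 8.7 and 8.8 with DMSO against 6.9 and 8.7 with TCDD. That Srsf2 value came from TCDD replicate 1 alone, and another Srsf2 probe set was higher without overlap, at 7.6 and 7.5 against 7.8 and 7.8. Srsf4, with 1 probe set, differed by -0.15.

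The SR-related group was led by Rbm39, a U2AF-related splicing factor, whose 9 probe sets ranged from -1.75 to 0.15. The leading one lay at 7.9 and 9.0 with DMSO against 6.4 and 7.0 with TCDD (difference -1.75, SE 0.513, 3.36-fold). A second lay at 7.2 and 8.5 against 6.8 and 6.3 (difference -1.30). Both kept the groups apart, whereas another at 6.2 and 7.7 against 5.0 and 6.3, also -1.30, overlapped. Of the rest, 4 differed by -1.0 to -0.55 and 2 by 0.05 and 0.15.

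Rbm39 also supplied most of the members that differed within the control group. In 8 of its 9 probe sets the DMSO arrays stood at least 1 apart, but not the same way: the leading one and 4 others were higher in DMSO replicate 2, and 3 in DMSO replicate 1, among them one at 5.9 against 4.4. Among all 166 probe sets 14 had DMSO arrays at least 1 apart, 8.43% against 1.8% of all probe sets. The other 6 belonged to Srsf5, U2af1, Sf3b1, Snrpb, Snrpd3 and Prpf39, and in all but Prpf39 DMSO replicate 1 was the higher. At levels of 8 and above the share was 2.56% of 78 members and 3.48% of 3128 probe sets, so the wider spread lay in the less bright members.

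Son, a scaffold of nuclear speckles, had 6 probe sets from -1.0 to 0.25; the lowest lay at 8.2 and 8.6 with DMSO against 6.7 and 8.1 with TCDD (SE 0.595), and its brightest at 10.0 and 9.9 against 10.1 and 9.7. Tra2b, which binds GAA-rich exonic enhancers, lay at 9.2 and 9.3 with DMSO against 8.2 and 8.6 with TCDD (difference -0.85, SE 0.179). Its second probe set, at 10.6 and 11.2 against 10.1 and 10.3, gave -0.70, and both kept the groups apart. Tra2a, its close relative, differed by -0.15 on 1 probe set. Srrm1, a splicing coactivator, had 4 from -0.90, at 8.9 and 8.5 against 7.3 and 8.3, to 0.70, at 5.5 and 5.1 against 5.6 and 6.4. Both ends of the Srrm1 range were free of overlap, in opposite directions, with the other 2 at -0.05.

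**Figure D3:**
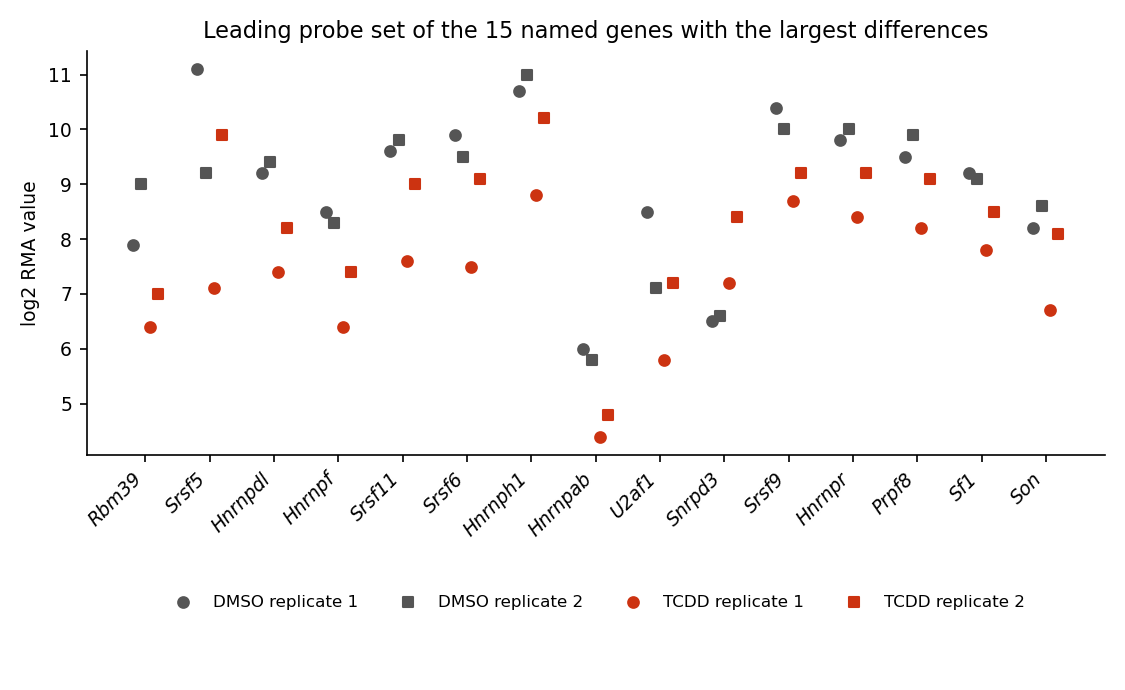
Log2 RMA values in each of the 4 arrays (grey, DMSO; red, TCDD; circles, replicate 1; squares, replicate 2) for the leading probe set of the 15 genes with the largest differences among the 39 chosen by the naming rule. TCDD replicate 1 is the lowest array in 14 of them and Snrpd3 is the one with TCDD above DMSO; Srsf5 and U2af1 overlap.

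In the hnRNP group 26 of 50 probe sets, 52.0%, were lower without overlap and 1, 2.0%, was higher, beside 18.4% and 19.0% of all probe sets. Of the 50, 35 have a mean level of 8 or above, where the share lower over all probe sets was itself 38.6% (8 to 10) and 33.1% (10 and above). Hnrnpf and Hnrnph1 encode proteins that bind runs of G near splice sites. Hnrnpf lay at 8.5 and 8.3 with DMSO against 6.4 and 7.4 with TCDD (difference -1.5, SE 0.419), and a second probe set at 8.2 and 7.8 against 6.4 and 7.2 (difference -1.20). Its 2 x_at probe sets, a type that can bind other transcripts too, did not follow, at -0.15 and 0.15. Hnrnph1 lay at 10.7 and 11.0 against 8.8 and 10.2 (difference -1.35, SE 0.585), with its x_at probe set at -0.40. Hnrnph2, at 9.9 and 9.7 against 8.3 and 9.0, differed by -1.15, and Hnrnph3, at 9.4 and 8.8 against 8.4 and 8.7, by -0.55. Each of these 4 genes thus had a probe set lower without overlap.

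Hnrnpdl and Hnrnpd, relatives that bind AU-rich RNA, were lower as well. The leading Hnrnpdl probe set lay at 9.2 and 9.4 with DMSO against 7.4 and 8.2 with TCDD (difference -1.5, SE 0.341, 2.83-fold). All 6 of its probe sets were below 0, but the brightest, at 12.0 and 12.3 against 12.0 and 11.7, differed by -0.30 with the groups touching at 12.0. Hnrnpd, at 9.5 and 9.7 against 9.1 and 8.7, gave -0.70 on 1 probe set. Hnrnpab, from the same branch of the family, shared with Rbm39 the widest spread between probe sets: its 7 ran from -1.30 to 0.60. The lowest lay at 6.0 and 5.8 with DMSO against 4.4 and 4.8 with TCDD (SE 0.192) and is dim on average. A bright one at 10.9 and 10.7 against 9.7 and 10.3 gave -0.80, and the highest, dim too, lay at 4.7 and 4.7 against 5.4 and 5.2. Dim probe sets at both ends therefore made much of that range.

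Hnrnpa1, a silencer of exons, and Hnrnpa2b1, which also reads RNA sorting signals, differed little. The leading Hnrnpa1 probe set lay at 9.8 and 9.4 with DMSO against 9.0 and 9.2 with TCDD (difference -0.50, SE 0.192), and its 2 others at -0.25 and -0.10. The 4 of Hnrnpa2b1 ran from -0.40 to -0.10, the first at 9.8 and 9.5 against 9.4 and 9.1. Under quantile normalization these leading differences were -0.10 and -0.01, so most of each depended on the scaling.

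Hnrnpk, a KH-domain protein that binds C-rich RNA, had 4 probe sets from -0.85, at 10.1 and 9.6 with DMSO against 8.9 and 9.1 with TCDD (SE 0.227), to 0.15. Hnrnpr lay at 9.8 and 10.0 against 8.4 and 9.2 (difference -1.10, SE 0.341), with others at -0.30 and -0.15. Hnrnpu, which also ties RNA to chromatin, had 5, all below 0 from -0.95 to -0.25. Its brightest, at 10.9 and 10.9 with DMSO against 10.6 and 9.9 with TCDD, gave -0.65, so Hnrnpu was among the genes with agreement across levels. Hnrnpm, at 8.4 and 8.6 against 7.5 and 7.7, differed by -0.90 on 1 probe set, and Hnrnpl, which binds CA repeats, by -0.45. Hnrnpll, a regulator of exon choice in the CD45 gene Ptprc, stood at -0.15 and 0.30, and Hnrnpc at -0.15 and 0.20, none of the 4 with the groups apart. Hnrnpul2 split, at -0.75 without overlap and at 0.25, and Hnrnpul1 stood at -0.05.

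At the 3′ splice site, Sf1, the branch point binding protein, lay at 9.2 and 9.1 with DMSO against 7.8 and 8.5 with TCDD (difference -1.0, SE 0.294). Its second probe set, at 6.2 and 5.9 against 5.3 and 5.5, gave -0.65, and the dim one 0.10. U2af1, the subunit that reads the terminal AG, lay at 8.5 and 7.1 with DMSO against 5.8 and 7.2 with TCDD (difference -1.30, SE 0.807). Those groups overlapped. U2af2, the subunit that binds the pyrimidine tract, read 9.6 in all 4 arrays, a difference of 0.00 that became 0.36 under quantile normalization and 0.31 under cyclic loess. U2af1l4, a relative of U2af1, lay at 6.7 and 6.1 against 6.1 and 6.7.

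Among U2 subunits 3 of 22 probe sets, 13.6%, were lower without overlap and 4, 18.2%, higher, below or near the 18.4% and 19.0% of all probe sets. Sf3b1, the large subunit that clamps the branch point, had 3 probe sets at -0.60, -0.55 and -0.40, none with the groups apart, the first at 10.1 and 10.6 with DMSO against 9.3 and 10.2 with TCDD (SE 0.423). Sf3b6, which lies next to the branch point adenosine, lay at 9.1 and 9.4 against 8.7 and 8.6 (difference -0.60, SE 0.143), with 3 others from -0.40 to -0.05. Sf3a3 differed by -0.45, at 7.2 and 7.6 against 7.0 and 6.9, and by -0.35 on a dim probe set.

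Other subunits of the same particle stood higher or level. Sf3a2 lay at 7.1 and 7.0 with DMSO against 7.4 and 7.5 with TCDD (difference 0.40, SE 0.085), and its second probe set at 0.35. Sf3b4 stood at 0.20 and 0.30 and Sf3b5 at 0.35 and 0.10. These 3 were the only genes among the 63 with 2 or more probe sets that all lay above 0. Sf3b2 had 4 probe sets from -0.30 to 0.15, of which the leading one, at 8.5 and 8.6 against 8.5 and 8.0, turned to 0.04 under quantile normalization. Sf3a1 stood at 0.00 on both of its probe sets, and Sf3b3 at 0.05.

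Of the snRNP core proteins, 3 of 15 probe sets were lower without overlap and 3 higher, 20% each way, near the array's 18.4% and 19.0%. Snrpb2 and Snrpa1 encode the pair of proteins bound to U2 RNA. Snrpb2 lay at 8.3 and 8.6 with DMSO against 7.4 and 7.7 with TCDD (difference -0.90, SE 0.183), while its others stood at 0.05 and 0.40. Snrpa1 lay at 7.4 and 7.6 against 6.8 and 6.9 (difference -0.65, SE 0.11), with others at -0.30 and 0.00. The leading probe sets of both kept the groups apart, but the other probe sets did not all follow.

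The Sm ring gene Snrpd3 had the highest value of the family. That probe set lay at 6.5 and 6.6 with DMSO against 7.2 and 8.4 with TCDD (difference 1.25, SE 0.493, 2.38-fold). Another lay at 7.6 and 5.9 against 6.0 and 6.4 (difference -0.55), and the remaining one stood at 0.10. The highest member value was therefore not shared within its own gene. Snrpn, the imprinted Sm protein typical of brain, lay at 6.2 and 6.2 against 6.8 and 7.2 (difference 0.80, SE 0.174) on 1 probe set. Snrpg stood at 0.45 without overlap and, on its brighter probe set, at -0.15; Snrpe stood at 0.20, Snrpc at -0.10 and Snrpb at -0.65 with overlap.

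PRPF proteins held 5 of 23 probe sets lower without overlap, 21.7% and so near the 18.4% of all probe sets, and 0 higher, where 19.0% of all were. Prpf8, the scaffold of the catalytic centre, lay at 9.5 and 9.9 with DMSO against 8.2 and 9.1 with TCDD (difference -1.05, SE 0.405). Prpf6, which bridges the U4/U6 and U5 particles, lay at 8.9 and 8.6 against 7.8 and 8.1 (difference -0.80, SE 0.183), with others at -0.50 and 0.05. Prpf39, a U1-associated factor, had 3 from -0.85, at 5.7 and 6.9 against 5.4 and 5.5, to 0.00. The groups were apart on the single probe set of Prpf8, on 1 of 3 of Prpf6 and on 2 of 3 of Prpf39.

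Prpf19, a ubiquitin ligase of the activated spliceosome, had 3 probe sets at -0.55, -0.40 and -0.40, none with the groups apart, the first at 10.0 and 9.6 with DMSO against 9.6 and 8.9 with TCDD. Prpf4b, a kinase of the spliceosome, had 6, all below 0 from -0.40 to -0.05; the first, at 6.9 and 7.6 against 7.5 and 6.2, had TCDD replicate 1 within the DMSO range and TCDD replicate 2 below it, and without TCDD replicate 2 its difference was 0.25. Agreement of sign among the probe sets of these 2 genes went with small differences. The other PRPF genes lay between -0.30 and 0.20.

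Agreement between probe sets of the same gene was counted over the 41 genes with 2 or more probe sets. In 17 genes, or 41.5%, every probe set lay below 0, against 25.4% of 4956 genes on the array; in 3, or 7.32%, every one lay above, against 17.0%; and 21 were mixed. The 17 included 6 hnRNP genes (Hnrnpa1, Hnrnpa2b1, Hnrnpdl, Hnrnph1, Hnrnpr and Hnrnpu) and 4 SR genes (Srsf1, Srsf6, Srsf10 and Srsf11). The range between the highest and lowest probe set of a gene had a median of 0.65, against 0.35 over all genes, and reached 1.90 in Rbm39 and Hnrnpab. A range can only widen as probe sets are added to a gene. The family has 166 probe sets for 63 genes, against 20380 for 12393 genes on the array. Neither the ranges nor the shares of agreement here were matched for the number of probe sets or for level. With dim probe sets left out, 20 of 38 genes, or 52.6%, were all below 0, against 39.8% of 2575 genes on the array. All above were 2, or 5.26%, against 12.4%, and agreement in either direction was 57.9% against 52.2%. Under quantile normalization of all probe sets 10 genes were all below 0 and 6 all above, under cyclic loess 12 and 6. The range was smaller in the 20 genes that agreed in direction, with a median of 0.38 against 0.25 over 2100 such genes on the array, than in the 21 mixed genes, with 1.0 against 0.45 over 2856. The range was thus widest in mixed genes, Rbm39 and Hnrnpab among them, but a wide range itself makes mixed signs more likely. In the 17 genes all below 0 the median range was also wider than in such genes on the array, 0.55 against 0.30. In the 3 all above 0 it was 0.10 against 0.20.

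**Figure D4:**
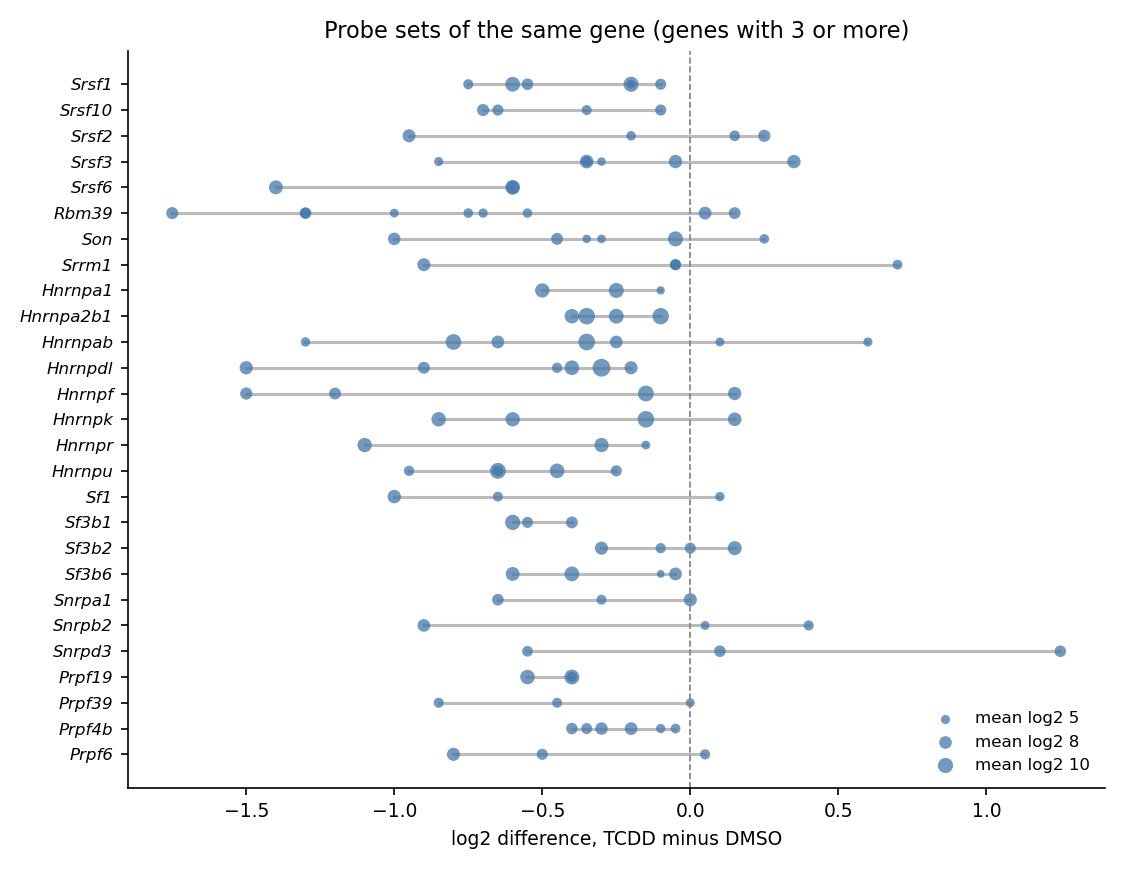
Each row is a gene with 3 or more probe sets and each point 1 probe set at its log2 difference (TCDD minus DMSO), with larger points for a higher mean log2 value; the grey line spans the gene's range. Srsf1, Srsf6, Hnrnpu and Sf3b1 lie wholly below 0, while Rbm39, Hnrnpab, Srrm1 and Snrpd3 spread over 1.60 or more.

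Probe sets of the same gene were also compared for likeness, taking the brightest and second brightest probe set above the dim threshold in 38 genes. Between the 2 DMSO arrays their differences had Pearson's r = 0.31 and Spearman's rho = 0.41, between the 2 TCDD arrays r = -0.23 and rho = -0.17. Over all 2575 genes of the array the Pearson values were 0.31 and 0.06. For the difference between TCDD and DMSO itself the members had r = 0.11 and rho = 0.11, and all genes r = 0.29 and rho = 0.30. Points share their arrays and the values are rounded, so these are descriptions. Probe sets of the same gene thus tracked each other weakly between DMSO arrays, with a value below 0 between TCDD arrays. For the difference, the members' r from 38 genes was lower than that of all genes. Its sign, however, was the same in 26 of the 38 and opposite in 10, against 1544 and 771 of the 2575.

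The 2 TCDD arrays differed in how the members were lower. Against the DMSO mean, TCDD replicate 1 had a median of -0.20 and TCDD replicate 2 one of -0.40, and without TCDD replicate 1 the median difference was -0.40, without TCDD replicate 2 -0.20. TCDD replicate 1 held the steep values: 10 members, or 6.02%, lay at least 1 below each other array, against 1.27% of all probe sets, and in TCDD replicate 2 an x_at probe set of Prpf6 did, 0.602% against 1.07%. The 10 were in Hnrnpf, Hnrnph1, Rbm39, Son, Srrm1, Srsf2, Srsf5, Srsf6, Srsf11 and U2af1. DMSO arrays stood apart on the higher side. At least 1 above each other array lay 6 members, 3.61%, in DMSO replicate 1 and 4, 2.41%, in DMSO replicate 2. The shares of all probe sets were 0.464% and 0.455%. None of these shares is matched for level. In TCDD replicate 1 the control probe sets for the 3′ end of Gapdh exceeded those for the middle by 3.6, against 1.5 to 2.1 in the other 3 arrays, and for beta-actin by 4.0 against 1.9 to 2.1. Over the 5′ end the excess was large in all arrays and TCDD replicate 1 stood less apart. It was 5.4 against 4.1 to 4.9 for Gapdh, and 4.4 against 3.3 to 4.0 for beta-actin. The part of this in the members' values was not tested.

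The type of probe set moved with the array. In all 12 genes with both an x_at and a plain at probe set above the dim threshold, the x_at one was higher in TCDD replicate 1 against the DMSO mean, with medians of 0.23 and -0.45; in TCDD replicate 2 it was in 7 of 12, with -0.44 and -0.53. Over the 363 genes of the array with such a pair the shares were 79.6% and 34.7%. In Hnrnpf the split is plain, the x_at probe sets reading 10.9 and 9.0 in TCDD replicate 1 where DMSO had 10.6 and 10.6, and 8.6 and 8.3. Without x_at and s_at probe sets, an alternative chosen after the values were seen, the members' median difference was -0.35 and 48 were lower without overlap. These were 37.5% of the plain at members and 37.5% of the a_at members, beside 18.3% and 20.7% of all such probe sets.

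**Figure D5:**
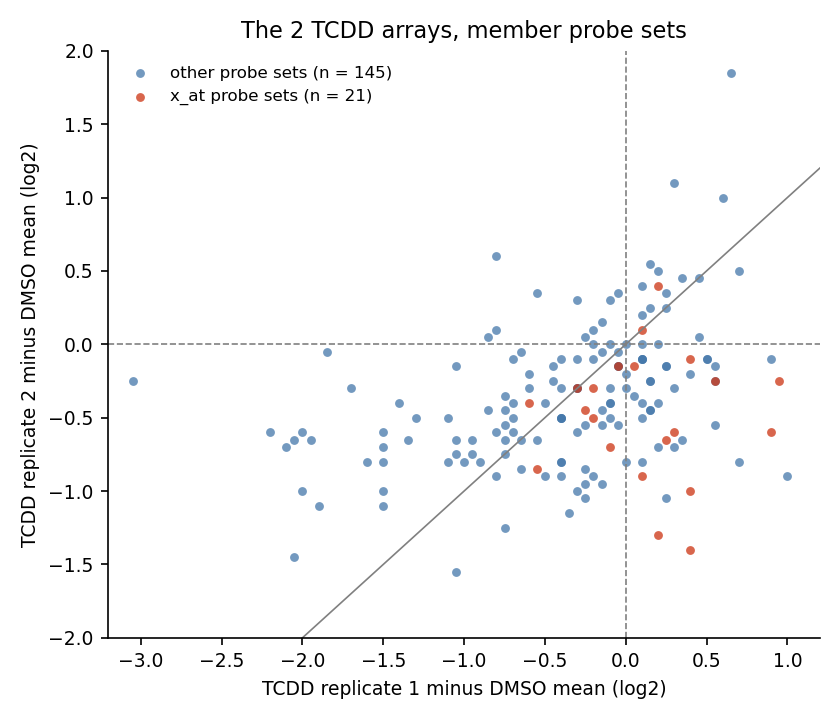
Each point is 1 member probe set, with TCDD replicate 1 minus the DMSO mean (log2) on the horizontal axis and TCDD replicate 2 minus the DMSO mean on the vertical axis; red points are x_at probe sets, the solid line marks equal values. Points far to the left, the lowest at -3.05 for Srsf5, come from TCDD replicate 1, and most x_at points lie below the line, where TCDD replicate 1 is the higher.

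Splicing genes outside the family rule gave similar values. Their probe sets had a median level of 7.075 against 5.925 over all probe sets, so the shares that follow are not matched for level. Of 110 listed genes for further spliceosome subunits, kinases and regulators 96 were measured, by 223 probe sets with a median difference of -0.30; 79, or 35.4%, were lower without overlap, beside 18.4% of all probe sets, 17, or 7.62%, were higher, beside 19.0%, and 0 were called. By the brightest probe set the largest differences were in Ptbp3, a relative of the polypyrimidine tract binding protein, at 9.2 and 9.2 with DMSO against 7.4 and 8.4 with TCDD (difference -1.30), and in Pcbp1, a poly-C binding protein, Plrg1, a partner of PRPF19, and Snrnp48, of the minor spliceosome, at -1.10 each.

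Markers of other cells are given for the same arrays, as the sum of log2 values over the brightest probe set of each measured gene. Each pair of sums is replicate 1, then replicate 2. The 9 DC markers summed to 93.8 and 91.5 with DMSO against 86.5 and 89.5 with TCDD. The 10 macrophage and monocyte markers summed to 92.6 and 91.0 against 85.2 and 85.4, and 6 proliferation genes to 51.0 and 54.6 against 47.2 and 46.9. Of 10 neutrophil markers 9 were measured, summing to 55.5 and 52.0 in DMSO, 67.2 in TCDD replicate 1 and 54.2 in TCDD replicate 2. Lcn2 was dim, and S100a8 lay at 10.3 in TCDD replicate 1 against 5.6 to 6.4 elsewhere. For B cells 6 of 7 gave 39.5 and 39.2 against 39.4 and 37.0. For T and NK cells 6 of 9 gave 35.1 and 33.3 against 34.9 and 33.2, with Ncr1, Cd247 and Cd3g dim. For erythroid cells 4 of 7 gave 23.0 and 23.2 against 23.5 and 24.0. Proliferation, macrophage and DC sums were lower in both TCDD arrays, as the splicing genes were, and their part in the splicing values was not tested. The sums are not matched for level. DC and macrophage probe sets had median levels of 8.825 and 8.35, and from 8 to 10 all probe sets had a median difference of -0.35. Proliferation probe sets had 7.6, and from 6 to 8 the median over all was -0.10.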

How the data were processed

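The authors deposited 1 table of log2 values for 4 arrays, made with RMA per the submitters' processing notes, a method that corrects background, normalizes quantiles and summarizes the probes of a probe set. Values are multiples of 0.1, and sources used here name no software version. Of 22690 rows, 64 controls were left out of the tests. Symbols came from the platform annotation: 20380 probe sets have 1 symbol, 691 several and 1555 none, and all 63 member symbols are current in RefSeq (GRCm38.p6). Precision is limited by having 2 arrays per group.

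TCDD was compared with DMSO with limma 3.58.1 in R 4.3.3 (lmFit, eBayes, two-sided, Benjamini-Hochberg over 22626 probe sets), a fit checked on simulated data. The simulated arrays had less noise than these, so that check does not show which differences could be called here. The 39 genes given per array were, in each of 7 role groups, the 4 with the largest difference, every gene with 3 or more probe sets, and every gene with probe sets past 0.5 on both sides of 0; some other members are given briefly, after their values were seen. Members, lists, motifs and rules were chosen with earlier results of these data known. Alternatives were other scalings, a filter on dim probe sets, a replicate block, a trended robust prior, 1 value per gene, other thresholds and leaving out each array.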

Additional observations from a re-analysis of the deposited data

How the results depend on the processing

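Limma called 0 probe sets under every setting run, including quantile normalization, cyclic loess, median centring, no dim probe sets, the trended robust prior, a threshold of 0.10, each array left out and the replicate block (0). At an unadjusted p under 0.05 it found 2958 with no block and 2047 with the replicate block. The change from replicate 1 to 2 had a correlation of -0.189 between DMSO and TCDD, which does not settle whether the numbers pair the arrays; the crossed pairing, added after the data were seen, called 0. The block changes no difference. With 1 array left out, limma takes the spread from the complete group and assumes it for the single array.

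The members' median difference of -0.30 moved to -0.15 under quantile normalization and lay between -0.40 and -0.20 when single arrays were dropped; it stayed below 0 in all settings run. The 58 members lower without overlap became 15 when a difference of at least 1 was asked for, where all probe sets had 2.35%. They lay between 77 and 110 when single arrays were dropped (110 without TCDD replicate 1), where a lone array makes a lack of overlap easier. The shares of all probe sets were then 23.7% to 45.3%, beside 46.4% to 66.3% of members. The 11 higher became 25 under quantile normalization, 27 under cyclic loess, 6 under median centring and 1 at a difference of at least 1. The shares of all probe sets there were 21.1%, 22.4%, 13.2% and 0.398%. With single arrays dropped the higher members lay between 15 and 38 (38 without TCDD replicate 2). That was 9.04% to 22.9% of members, beside 24.8% to 40.8% of all probe sets. Agreement in 1 direction between probe sets of a gene, 20 of 41 genes, ranged from 16 to 25 over all settings. Of the 39 leading differences, 12 moved by more than the spread between arrays under quantile normalization, 11 under cyclic loess and 1 under median centring. Under quantile normalization Tra2b moved from -0.85 to -0.50, Hnrnpk from -0.85 to -0.475 and Snrpb2 from -0.90 to -0.59. Prpf6 moved from -0.80 to -0.46 and Sf3b6 from -0.60 to -0.24, while Sf3a2 grew from 0.40 to 0.60. The cause was not tested.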
